A study of Mus musculus with 11 samples.

Results

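The genes described here encode the cytosolic sensors of double-stranded RNA and the proteins that act beside them, measured in bulk RNA-sequencing of mouse mammary tumors. Members were chosen by gene symbol: Ddx58 (now also named Rigi), Ifih1, Dhx58, Rnf135, Mavs, Eif2ak2, Adar and Dhx9. All 8 were found among the 26283 genes of the deposited tables, and all 8 were among the 19232 genes that passed the filter on low counts and were tested.

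Tumors came from C57BL/6 females aged 18 weeks carrying MMTV-PyMT, which expresses the polyomavirus middle T oncogene in the mammary gland. There were 6 tumors with floxed Pcbp1 alleles, Pcbp1(fl/fl), called PyMT Pcbp1–/– or knockout, and 5 tumors with Pcbp1(wt/wt) alleles, called PyMT Pcbp1+/+ or wild-type. Both groups carried MMTV-Cre as well as MMTV-PyMT. The MMTV promoter is used to direct Cre to mammary epithelial cells, and each library pools their RNA with that of fibroblasts, immune cells and vessels, in which the state of Pcbp1 was not measured here. The comparison asks how the RNA level of each sensor differs between tumors with floxed and with wild-type Pcbp1 alleles. Labels number the tumors within a group and give 1 batch for all 11. They do not state that each tumor came from a different mouse, so the tests measure the spread between these tumors. The counts of a library summed to between 10543189 and 14092192. Library totals were larger in the knockout group (median 13135786) than in the wild-type group (median 10975700; two-sided exact permutation test of the means, p = 0.00866, where the smallest p possible is 0.00433). Values below are the deposited CPM, counts scaled to 1 common library total, and the part of the totals in the results was not tested beyond the scaling alternatives.

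Double-stranded RNA in the cytosol is a mark of viral replication, but it also arises in uninfected and malignant cells from paired transcripts of repeats and of mitochondrial DNA. RIG-I and MDA5 bind such RNA and engage the adaptor MAVS on mitochondria, which activates kinases that switch on type I interferon genes, while PKR shuts down translation and ADAR1 edits adenosines to inosines so that the cell's own duplexes are not sensed. Several of these genes are themselves induced by interferon, and in mammary tumors the response to double-stranded RNA is studied as a source of interferon inside cancer cells.

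Pcbp1 itself was read first, as a check of the labels. It ranged from 15.4 to 33.6 CPM in the knockout tumors (median 20.9) and measured 268, 271, 225, 220 and 259 CPM in wild-type replicates 1 to 5. Every knockout tumor lay below every wild-type tumor, at 9.26% of the wild-type mean, with a log2 fold change of −3.43 (SE 0.19, edgeR quasi-likelihood test with Benjamini-Hochberg adjustment over all genes tested, adjusted p = 4.72e-06). The tissue label was checked against 8 markers of luminal epithelium (Krt8, Krt18, Krt19, Epcam, Cdh1, Elf5, Csn3 and Wap). All 8 were present in the table, and their CPM summed to between 1522 and 3741 in each tumor.

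Of the 8 genes, 5 fell in the knockout tumors, with an adjusted p under 0.05: the RIG-I-like receptor genes Ddx58, Ifih1 and Dhx58, the kinase gene Eif2ak2 and the editing enzyme gene Adar. Rnf135, Mavs and Dhx9 did not pass the threshold, and 0 of the 8 were higher (also 0 higher at an unadjusted p under 0.05, with DESeq2 and with limma). Among all 19232 genes tested, 319 were lower (1.66%) and 117 were higher (0.608%). The groups did not overlap for 4 of the 8 genes, each with all 6 knockout tumors below all 5 wild-type tumors in CPM, against 389 of 19232 genes overall (2.02%). The median log2 fold change of the 8 genes was −0.80 and that of all genes tested was −0.0001. In bulk tumors, fewer cells of a type that expresses these genes and less RNA per cell cannot be told apart.

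**Figure D1:**
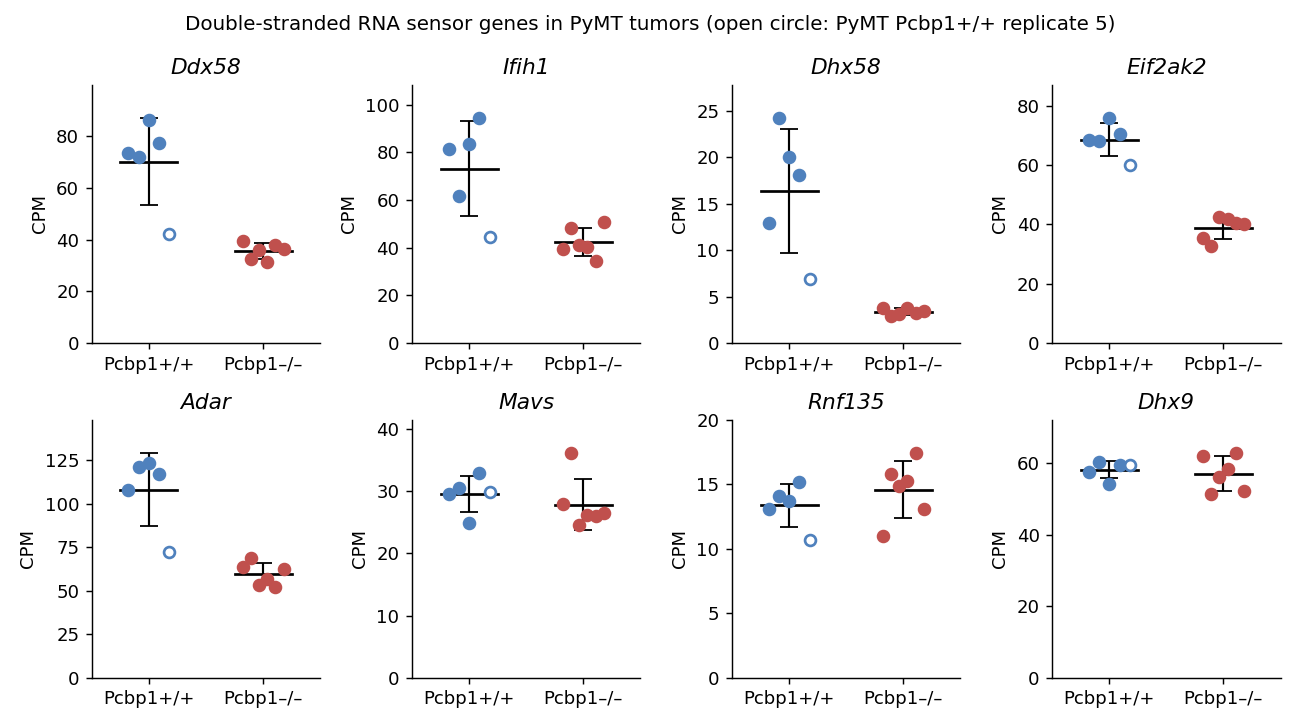
CPM of the 8 genes in each tumor, 1 panel per gene, for PyMT Pcbp1+/+ (blue, n = 5) and PyMT Pcbp1–/– (red, n = 6); bars give the mean ± SD and the open circle is wild-type replicate 5. Knockout points lie below all wild-type points for Ddx58, Dhx58, Eif2ak2 and Adar, overlap only with wild-type replicate 5 for Ifih1, and are intermixed for Mavs, Rnf135 and Dhx9.

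The RIG-I-like receptors come first. Ddx58 encodes RIG-I, a helicase that recognizes short duplexes and RNA ends carrying triphosphates, and lies on chromosome 4 (GRCm38 40203773 to 40239828, minus strand, ENSMUSG00000040296.15). It measured 73.6, 71.8, 86.3, 77.4 and 42.2 CPM in wild-type replicates 1 to 5, and 31.3 (lowest), 36.1 (median) and 39.6 (highest) in the knockout tumors. Knockout tumors sat in a narrow band just under wild-type replicate 5, which was far below the other 4 wild-type tumors. The means were 35.6 ± 3.12 CPM (SD, n = 6) and 70.2 ± 16.7 (SD, n = 5), a log2 fold change of −0.98 (SE 0.15, 95% interval −1.31 to −0.65, edgeR adjusted p = 0.00618).

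Ifih1 encodes MDA5, the helicase that polymerizes along long duplexes, and lies on chromosome 2 (62595798 to 62646255, minus strand, ENSMUSG00000026896.14). Its wild-type values were 81.6, 61.6, 83.5, 94.2 and 44.5 CPM, and its knockout values ran from 34.5 through a median of 40.5 to 50.8. Wild-type replicate 5 fell inside the knockout range: 4 of 6 knockout tumors lay below it, while knockout replicates 2 (48.1) and 6 (50.8) lay above it and below the other wild-type tumors. The log2 fold change was −0.78 (means 42.3 ± 6.03 CPM, SD, n = 6, and 73.1 ± 19.9, SD, n = 5; SE 0.16, 95% interval −1.14 to −0.43, edgeR adjusted p = 0.0307). This call was lost on log-scale values with limma, at −0.74 with a pseudocount of 1 (adjusted p = 0.0547) and −0.75 with a pseudocount of 0.1 (adjusted p = 0.0558). In edgeR it was lost without knockout replicate 1 (−0.76, adjusted p = 0.0615), 3 (−0.77, 0.0776), 4 (−0.77, 0.0715) or 5 (−0.73, 0.0762), and without wild-type replicate 1 (−0.77, 0.0675), 3 (−0.69, 0.0814) or 4 (−0.70, 0.0895). Its adjusted p ranged from 0.00111 to 0.0895 over the 20 alternatives.

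Dhx58 encodes LGP2, a relative of RIG-I and MDA5 without the caspase recruitment domains that signal to MAVS, known as a regulator of both. The gene lies on chromosome 11 (100694884 to 100704271, minus strand, ENSMUSG00000017830.15). Wild-type replicates 1 to 5 measured 12.9, 24.2, 20.0, 18.1 and 6.88 CPM, and the knockout tumors ran from 2.92 through 3.37 to 3.76. All 6 knockout tumors were nearly alike, and the lowest wild-type tumor, replicate 5, still exceeded each of them. The means were 3.38 ± 0.337 CPM (SD, n = 6) and 16.4 ± 6.70 (SD, n = 5), so that knockout tumors held 20.6% of the wild-type mean. The log2 fold change was −2.28 (SE 0.26, 95% interval −2.84 to −1.71, edgeR adjusted p = 0.00194), and the gene ranked 11 by p among all genes tested.

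The ratio of Dhx58 to its relatives was compared between tumors, not as a difference in level between genes. The CPM of Dhx58 was 8.63% to 11.9% of that of Ddx58 in the knockout tumors (median 9.23%) and 16.3% to 33.7% in the wild-type tumors (median 23.1%). Against Ifih1 the same share was 6.08% to 9.57% (median 8.45%) and 15.5% to 39.2% (median 19.2%). The groups did not overlap on either ratio, and wild-type replicate 5 gave the lowest wild-type ratio on both (16.3% and 15.5%). These ratios are a description and were not tested.

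Rnf135 encodes Riplet, the ubiquitin ligase that modifies RIG-I on RNA, and Mavs encodes the shared adaptor of RIG-I and MDA5. Rnf135 (chromosome 11, 80183851 to 80199757, plus strand, ENSMUSG00000020707.6) measured 13.1, 14.1, 13.7, 15.2 and 10.7 CPM in wild-type replicates 1 to 5 and 11.0 to 17.4 (median 15.1) in the knockout tumors. Its groups overlapped in part, with 3 of 6 knockout tumors above every wild-type tumor and wild-type replicate 5 below every knockout tumor, at a log2 fold change of 0.13 (SE 0.13, 95% interval −0.15 to 0.41, edgeR adjusted p = 0.623). Mavs (chromosome 2, 131234063 to 131248025, plus strand, ENSMUSG00000037523.13) measured 29.5, 30.5, 24.8, 32.9 and 29.9 CPM in the wild-type tumors and 24.6 to 36.0 (median 26.3) in the knockout tumors. Both the lowest and the highest Mavs values of the series were in knockout tumors, and the difference in log2 was −0.09 (SE 0.10, 95% interval −0.30 to 0.13, edgeR adjusted p = 0.686). The interval for Mavs lay wholly above those of the 3 receptors.

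Eif2ak2 encodes PKR, the kinase that on binding duplex RNA phosphorylates the initiation factor eIF2α, and lies on chromosome 17 (78852564 to 78882573, minus strand, ENSMUSG00000024079.4). Wild-type replicates 1 to 5 measured 68.7, 68.2, 75.8, 70.5 and 60.1 CPM, against 32.7 (lowest), 40.3 (median) and 42.5 (highest) in the knockout tumors. The groups stood well apart, and replicate 5, again the lowest of the wild-type tumors, was much nearer to the other 4 than it was for the receptors. With means of 38.9 ± 3.97 CPM (SD, n = 6) and 68.7 ± 5.65 (SD, n = 5), the log2 fold change was −0.82 (SE 0.10, 95% interval −1.05 to −0.60, edgeR adjusted p = 0.00287).

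Adar encodes ADAR1, the deaminase that edits adenosines in duplex RNA, and lies on chromosome 3 (89715022 to 89753446, plus strand, ENSMUSG00000027951.16). It measured 108, 121, 123, 117 and 72.4 CPM in wild-type replicates 1 to 5, and 52.3, 59.6 and 68.8 as the lowest, median and highest of the knockout tumors. Replicate 5 stood apart from the other wild-type tumors and just above the highest knockout tumor. The log2 fold change was −0.86 (means 59.5 ± 6.49 CPM, SD, n = 6, and 108 ± 20.7, SD, n = 5; SE 0.13, 95% interval −1.14 to −0.58, edgeR adjusted p = 0.00554). Counts are per gene, so the interferon-inducible long isoform of ADAR1 and its constitutive short isoform cannot be told apart.

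Dhx9, a helicase that unwinds duplexes and binds inverted repeats in nuclear transcripts, lies on chromosome 1 (153455758 to 153487660, minus strand, ENSMUSG00000042699.11). Wild-type values were 57.6, 60.2, 54.1, 59.5 and 59.4 CPM, and knockout values were 51.3 to 62.7 (median 57.2). The groups overlapped, with a log2 fold change of −0.03 (SE 0.08, 95% interval −0.21 to 0.15, edgeR adjusted p = 0.885). Its sign turned in 2 of the 20 alternatives, without knockout replicate 2 (0.0098) and without wild-type replicate 5 (0.002).

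Some of these genes share their locus with a transcript of the other strand. The libraries were stranded, but the sources used here do not state that counting used the strand, so reads in the overlaps cannot be told apart. The 3′ part of Adar overlaps Chrnb2 (89746195 to 89764632, minus strand), which measured 6.50 ± 0.995 CPM (SD, n = 6) in knockout and 12.4 ± 2.75 (SD, n = 5) in wild-type tumors (log2 fold change −0.93, SE 0.16, edgeR adjusted p = 0.0122). Chrnb2 was thus lower in knockout tumors together with Adar, and its groups overlapped at wild-type replicate 5 (8.02 CPM). Dhx58os, opposite Dhx58, averaged 0.460 and 0.759 CPM in knockout and wild-type tumors and did not pass the filter, and Gm26637, opposite Eif2ak2, averaged 1.60 and 2.22 CPM (log2 fold change −0.47, SE 0.25, edgeR adjusted p = 0.334).

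The order of the 8 genes by level was read as CPM per kilobase of exon, using the union of the exons of each gene in GENCODE vM39, matched by Ensembl identifier for 8 of 8. On this scale the wild-type order was Adar (13.3 ± 2.55, SD, n = 5), Eif2ak2 (12.6 ± 1.04), Ddx58 (8.32 ± 1.97), Ifih1 (8.13 ± 2.21), Dhx9 (6.02 ± 0.254), Dhx58 (4.87 ± 1.99), Rnf135 (4.19 ± 0.525) and Mavs (2.60 ± 0.260). Neighbors in this order differed by less than the larger of their SDs, except for Eif2ak2 and Ddx58 and for Rnf135 and Mavs. In the knockout tumors Adar (7.32 ± 0.799, SD, n = 6) and Eif2ak2 (7.15 ± 0.730) still led, within 1 SD of each other. They were followed by Dhx9 (5.91 ± 0.497), Ifih1 (4.70 ± 0.671), Rnf135 (4.58 ± 0.698), Ddx58 (4.21 ± 0.370), Mavs (2.45 ± 0.364) and Dhx58 (1.00 ± 0.0998). Ifih1, Rnf135 and Ddx58 differed from their neighbors among these 3 by less than the larger SD. The wild-type mean of Dhx58 was above that of Mavs, although in wild-type replicate 5 Dhx58 (2.04 CPM per kilobase) was below every wild-type Mavs value (2.18 to 2.89). In the knockout group Dhx58 was last, and its highest knockout tumor (1.11 CPM per kilobase) lay below the lowest knockout Mavs value (2.16). A union of exons counts every annotated isoform, so genes with long alternative ends, such as Mavs with 11372 exon bases, have lower values per kilobase.

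**Figure D2:**
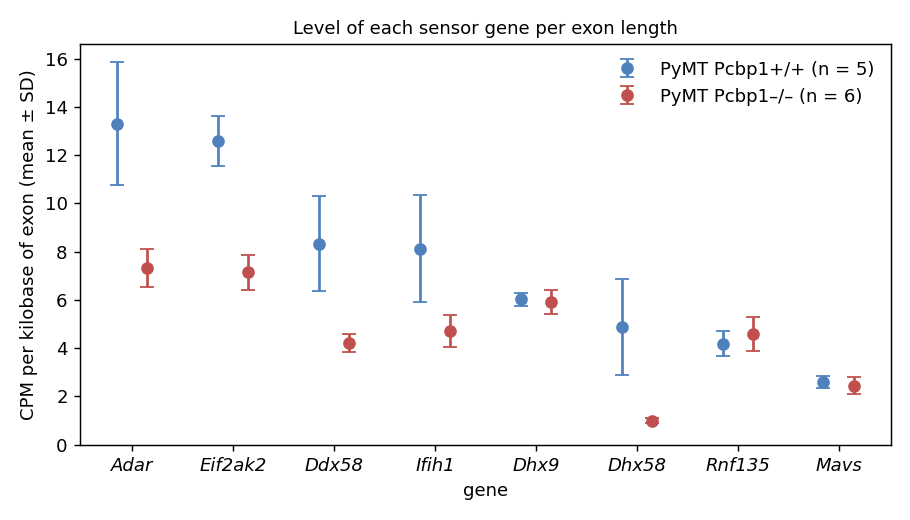
CPM per kilobase of exon for each gene, ordered by the wild-type mean; points are means and bars SDs of PyMT Pcbp1+/+ (blue, n = 5) and PyMT Pcbp1–/– (red, n = 6) tumors. Adar and Eif2ak2 lead in both groups, and Dhx58 goes from 4.87 to 1.00.

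The genes varied unequally within a genotype. The coefficient of variation over the 5 wild-type tumors was 40.8% for Dhx58, 27.2% for Ifih1, 23.7% for Ddx58 and 19.2% for Adar, 12.5% for Rnf135, 10.0% for Mavs, 8.23% for Eif2ak2 and 4.21% for Dhx9. Over the 6 knockout tumors it was 9.97% for Dhx58, 8.77% for Ddx58, 10.9% for Adar, 14.3% for Ifih1, 15.2% for Rnf135, 14.9% for Mavs, 10.2% for Eif2ak2 and 8.41% for Dhx9. It was thus smaller in the knockout group for Dhx58, Ifih1, Ddx58 and Adar and larger for the other 4 genes. Without wild-type replicate 5, left out after the data were seen, the wild-type values were 24.9% for Dhx58, 16.9% for Ifih1, 8.35% for Ddx58, 5.47% for Adar, 6.49% for Rnf135, 11.6% for Mavs, 4.90% for Eif2ak2 and 4.70% for Dhx9. Ddx58 and Adar were then no more variable in the wild-type than in the knockout group. Wild-type replicate 5 was the lowest wild-type tumor for 6 of the 8 genes (Ddx58, Ifih1, Dhx58, Eif2ak2, Adar and Rnf135), and its Pcbp1 level, 259 CPM, was the median of its group. Wild-type replicate 3 was the highest for Ddx58, Eif2ak2 and Adar. Without replicate 5 the log2 fold changes were −2.46 for Dhx58, −1.11 for Ddx58, −0.96 for Adar, −0.90 for Ifih1 and −0.85 for Eif2ak2 (edgeR adjusted p from 0.000149 to 0.00581).

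Some of the genes also deviated together around their group means. Deviations were taken on log2 CPM after TMM scaling of each library, not on the deposited CPM. On the log2 CPM scale over 11 tumors, the deviations of Ddx58 and Dhx58 correlated at r = 0.81, those of Dhx58 and Adar at 0.81, of Ddx58 and Adar at 0.76, of Ifih1 and Adar at 0.75 of Ddx58 and Ifih1 at 0.66 and of Ifih1 and Dhx58 at 0.50 (Pearson, as a description with no p). Eif2ak2 followed these genes less closely (r = 0.48 with Ddx58, 0.44 with Dhx58, 0.22 with Ifih1 and 0.12 with Adar) and ran against Mavs (r = −0.78), while Ifih1 ran against Dhx9 (r = −0.68). The positive correlations among Ddx58, Ifih1, Dhx58 and Adar rested largely on wild-type replicate 5, whereas those of Eif2ak2 with Ddx58 and Dhx58 did not. That tumor deviated by −1.04 for Dhx58, −0.61 for Ddx58, −0.58 for Ifih1, −0.47 for Adar and −0.10 for Eif2ak2. Over the other 10 tumors r was 0.42 for Ddx58 and Dhx58, 0.50 for Dhx58 and Adar, 0.34 for Ddx58 and Adar, 0.44 for Ifih1 and Adar, 0.17 for Ddx58 and Ifih1 and −0.20 for Ifih1 and Dhx58. Eif2ak2 stood at 0.52 with Ddx58, 0.44 with Dhx58, 0.08 with Ifih1, −0.10 with Adar and −0.77 with Mavs, and Ifih1 at −0.63 with Dhx9. Some pairs rose without wild-type replicate 5: Dhx58 and Dhx9 from 0.0 to 0.57, Ddx58 and Dhx9 from −0.07 to 0.47, and Mavs and Adar from 0.08 to 0.46.

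By the same measure, the genes most like Ddx58 among all genes tested, over 11 tumors, were Parp10 (r = 0.96), Oas1g (0.95) and Stat2 (0.94). Each of the 3 was itself lower in knockout tumors, with log2 fold changes of −0.76, −2.46 and −1.42 (edgeR adjusted p = 0.0243, 0.0048 and 0.0112). Ifih1 was most like Rab29 (0.97), Samd9l (0.95) and Styk1 (0.95), of which Samd9l passed the threshold (log2 fold change −0.93, edgeR adjusted p = 0.0384). For Dhx58 the leading genes were Med6 (0.96), RP23-142A14.5 (0.91) and Elf4 (0.91), for Adar they were Atp5e (0.96), Gbp7 (0.96) and RP23-333I24.3 (0.94), and for Eif2ak2 they were Setdb2 (0.93), Parp9 (0.91) and Socs1 (0.91). These 9 genes had edgeR adjusted p-values of 0.051 to 0.991. The most alike of Mavs were Btd (0.95), RP23-347F4.1 (0.94) and Tmem80 (0.94), of Dhx9 Prep (0.98), Lins1 (0.97) and the gene ENSMUSG00000102275.1 (0.95), and of Rnf135 Tmem141 (0.94), Anapc7 (0.90) and RP23-356D13.11 (0.89), with edgeR adjusted p-values of 0.16 to 0.976. These genes have the highest correlations among 19232 genes over only 11 tumors, so high values of r are set by the selection, and the chance level of such a maximum was not computed. Wild-type replicate 5 deviated by −0.65 for Parp10, −1.48 for Oas1g and −0.92 for Stat2. Its deviations were −1.17 to −0.47 for the genes most like Ifih1, Dhx58 and Adar, and −0.71 to −0.10 for those of Eif2ak2 and Rnf135. For those of Mavs and Dhx9 they were 0.02 to 0.40. Values of r without that tumor are not given for these genes.

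Genes that work with the sensors were read from 7 lists. Over all 19232 genes tested, edgeR called 319 lower (1.66%) and 117 higher (0.608%). DESeq2 called 723 lower and 482 higher over all genes, and limma-voom with quality weights 1190 and 968. At least 3517 genes had an unadjusted edgeR p under 0.05. Among 18 cofactors and regulators of the RIG-I-like receptors, 4 were lower and 0 higher (5 higher at an unadjusted p under 0.05, 1 with DESeq2, 2 with limma-voom with quality weights), with a median log2 fold change of −0.06. The lower genes were Trim25, a ubiquitin ligase of RIG-I (124 ± 12.8 CPM, SD, n = 6, against 187 ± 14.4, SD, n = 5, log2 fold change −0.59, edgeR adjusted p = 0.00651), Zcchc3, a co-receptor for RNA (5.99 ± 1.73 against 13.1 ± 3.36, −1.12, 0.0218), Ddx60, a helicase linked to RIG-I signaling (3.36 ± 1.74 against 13.4 ± 5.81, −1.99, 0.0196), and Tkfc, a kinase that binds MDA5 (1.64 ± 0.444 against 3.86 ± 1.27, −1.22, 0.0280). Trim25 and Tkfc separated the groups fully, whereas 1 knockout tumor lay above the lowest wild-type tumor for Zcchc3 and for Ddx60. The other 14 genes did not pass the threshold. The Zcchc3 call was lost without wild-type replicate 1, 3 or 4 (log2 fold change −1.04, −1.11 and −1.14, edgeR adjusted p 0.0514 to 0.0559). That of Ddx60 was lost without knockout replicate 3, 4 or 5 (−1.93, −1.91 and −1.90) or wild-type replicate 3 or 4 (−1.74 and −1.94, edgeR adjusted p 0.0522 to 0.0573 in these 5), and that of Tkfc without knockout replicate 3, 5 or 6 (−1.16, −1.26 and −1.22) or wild-type replicate 1 or 4 (−1.22 and −1.28, edgeR adjusted p 0.0509 to 0.0715).

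Downstream of MAVS, 2 of 21 partners and kinases were lower and 1 was higher, with a median log2 fold change of −0.03. Over all genes tested, 1.66% were lower and 0.608% higher. Irf7, the interferon-induced transcription factor that drives interferon genes, measured 125, 114, 155, 158 and 40.0 CPM in wild-type replicates 1 to 5 and 11.4 to 22.3 in the knockout tumors. The groups did not overlap, replicate 5 was the lowest wild-type tumor, and the log2 fold change was −2.89 (SE 0.31, edgeR adjusted p = 0.00194). Ikbkb, the IκB kinase subunit IKKβ, was 76.4 ± 3.20 CPM (SD, n = 6) against 96.5 ± 6.19 (SD, n = 5), a log2 fold change of −0.34 (SE 0.07, edgeR adjusted p = 0.0325). Tbkbp1, an adaptor of the kinase TBK1, was the higher gene, at 13.5 ± 1.80 against 8.75 ± 0.327 CPM (log2 fold change 0.62, SE 0.12, edgeR adjusted p = 0.0181), with all knockout tumors above all wild-type tumors. The Ikbkb call was lost with no filter on low counts (−0.33, edgeR adjusted p = 0.0592) and without any single tumor of knockout replicates 1, 3, 4, 5 and 6 or wild-type replicates 3, 4 and 5 (−0.35 to −0.31, edgeR adjusted p 0.0517 to 0.0926). The Tbkbp1 call was lost without knockout replicate 3 (0.60, edgeR adjusted p = 0.0506) or wild-type replicate 1 or 4 (0.59 and 0.62, 0.0503 and 0.0505). Irf7 overlaps Phrf1 on the other strand, which had a log2 fold change of −0.11 (edgeR adjusted p = 0.482).

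Factors that restrain or degrade MAVS did not pass the threshold: 0 of 14 genes tested were lower or higher in edgeR, DESeq2 or limma, 1 was higher at an unadjusted p under 0.05, and the median log2 fold change was −0.00. With 1.66% of all genes lower and 0.608% higher in edgeR, 0 calls in a list this short is near the share of all genes. The 3 with the highest mean CPM were Smurf2, a ubiquitin ligase (71.4 ± 5.84 CPM, SD, n = 6, against 67.1 ± 4.55, SD, n = 5, log2 fold change 0.09), Tax1bp1, an adaptor of autophagy (68.4 ± 8.98 against 70.2 ± 11.4, −0.03), and Itch, a ubiquitin ligase (67.5 ± 3.24 against 64.8 ± 8.83, 0.07). Their 95% intervals ran from −0.09 to 0.27, −0.27 to 0.22 and −0.10 to 0.23.

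Around PKR, 0 of 19 genes of the eIF2α pathway passed the threshold in edgeR, with a median log2 fold change of 0.12. In a list this short that is near the share of all genes (1.66% lower and 0.608% higher). At an unadjusted p under 0.05, which at least 3517 of all 19232 genes passed, 2 were lower and 4 higher. DESeq2 called 1 lower, and limma-voom with quality weights 1 lower and 4 higher. Over all genes those tools called 723 lower and 482 higher, and 1190 lower and 968 higher. Ppp1r15b, a subunit that directs the eIF2α phosphatase, measured 202 ± 28.4 CPM (SD, n = 6) against 181 ± 5.76 (SD, n = 5), a log2 fold change of 0.15 (95% interval −0.05 to 0.36). Dnajc3, a chaperone known to inhibit PKR, stood at 92.3 ± 6.42 against 89.0 ± 29.9 CPM (0.06, interval −0.36 to 0.48), and Eif2s3x, the gamma subunit of the factor, at 97.7 ± 4.92 against 82.0 ± 12.6 CPM (0.26, interval 0.06 to 0.45, edgeR adjusted p = 0.152). The gene that DESeq2 and limma-voom called lower, named after its values were seen, was Ppp1r15a, the inducible partner of the same phosphatase, at 10.1 ± 1.38 against 15.5 ± 3.60 CPM (−0.61, interval −0.93 to −0.30, edgeR adjusted p = 0.0506).

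Of 9 tested genes of adenosine editing and of Z-RNA recognition, 1 was lower and 0 higher (0 higher also at an unadjusted p under 0.05, 1 with limma-voom with quality weights), with a median log2 fold change of 0.05. The edgeR share of lower genes over all genes tested was 1.66%. The lower gene was Zbp1, the sensor of Z-form RNA, at 25.5, 22.9, 30.8, 29.3 and 11.1 CPM in wild-type replicates 1 to 5 and 6.58 to 10.2 in the knockout tumors. Replicate 5 was again the lowest wild-type tumor, and the groups did not overlap (log2 fold change −1.49, SE 0.22, edgeR adjusted p = 0.00504). Adarb1, which encodes the editing enzyme ADAR2, measured 11.8 ± 1.71 CPM (SD, n = 6) against 11.4 ± 3.44 (SD, n = 5), a log2 fold change of 0.05 (95% interval −0.32 to 0.42).

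Other proteins that bind or unwind duplex RNA, among them Dicer1, Drosha, Stau1 and Tlr3, gave 0 calls among 21 genes in edgeR and a median log2 fold change of −0.05. At an unadjusted p under 0.05, 2 were lower and 0 higher, and DESeq2 and limma-voom with quality weights each called 1 lower. Those of highest mean CPM, not corrected for length, were the helicase genes Ddx5 (592 ± 42.8 CPM, SD, n = 6, against 641 ± 58.7, SD, n = 5, log2 fold change −0.12), Ddx17 (469 ± 42.2 against 569 ± 49.0, −0.28) and Ddx6 (368 ± 19.5 against 385 ± 45.6, −0.07). Ddx17 was the gene that both called, and its edgeR adjusted p was 0.0880.

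Interferons and the factor ISGF3, which induces interferon-stimulated genes, formed the last list. Of 14 genes 4 were tested: 2 were lower and 0 higher (0 also at an unadjusted p under 0.05 and with DESeq2 or limma), and the median log2 fold change was −1.0. Over all genes tested, 1.66% were lower in edgeR. Stat2 measured 51.8, 57.0, 83.8, 55.3 and 25.4 CPM in wild-type replicates 1 to 5 and 16.3 to 27.0 in the knockout tumors (log2 fold change −1.42, SE 0.24, edgeR adjusted p = 0.0112). Irf9 measured 74.7, 73.6, 78.3, 74.3 and 39.5 against 37.7 ± 6.35 CPM (SD, n = 6, highest 46.4) in the knockout tumors (−0.85, SE 0.17, edgeR adjusted p = 0.0254). For both of these components of ISGF3, wild-type replicate 5 lay within the knockout range and the other 4 wild-type tumors above it. The Irf9 call was lost without knockout replicate 3, 4 or 5 (−0.84, −0.84 and −0.81) or wild-type replicate 1, 3 or 4 (−0.84, −0.75 and −0.83, edgeR adjusted p 0.0576 to 0.0689 in these 6), and Irf9 overlaps Rnf31 on the same strand (log2 fold change −0.70, edgeR adjusted p = 0.00742). Ifnk, the interferon that was tested, had a log2 fold change of −0.16 (95% interval −0.78 to 0.46) at 1.40 ± 0.541 (SD, n = 6) and 1.56 ± 0.392 (SD, n = 5) CPM. Ifng did not pass the filter on low counts, and Ifnb1, Ifne and the listed alpha and lambda interferons were not analysed here.

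**Figure D3:**
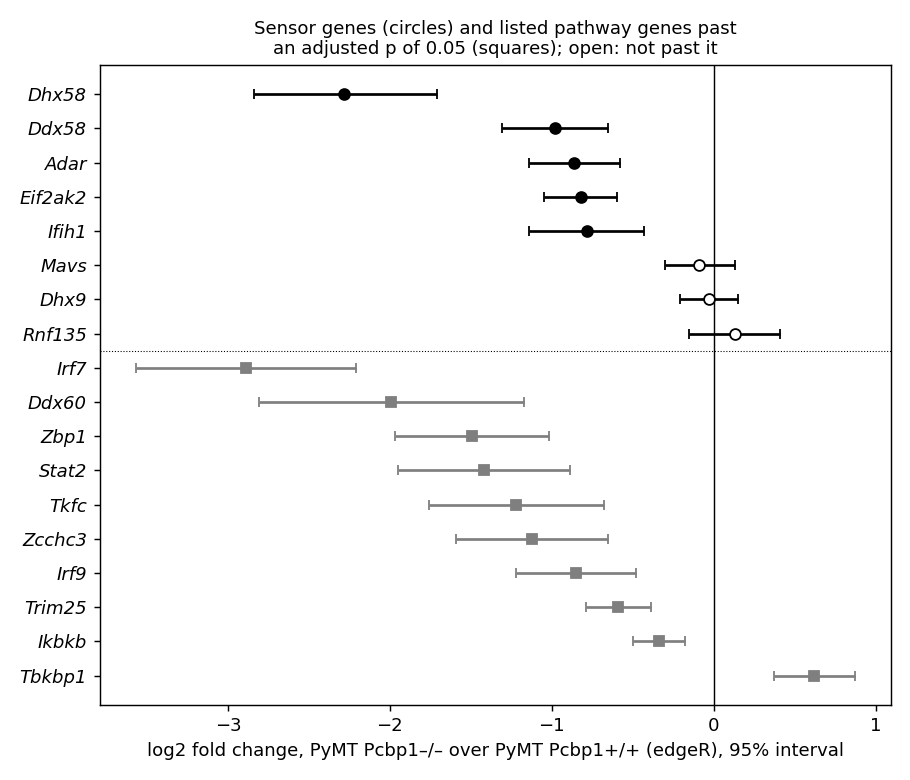
Log2 fold change of PyMT Pcbp1–/– (n = 6) over PyMT Pcbp1+/+ (n = 5) tumors with its 95% interval from edgeR, for the 8 sensor genes (circles) and the 10 listed pathway genes past an adjusted p of 0.05 (squares); open symbols did not pass. Intervals of Mavs, Dhx9 and Rnf135 span 0, and those of the 5 other sensor genes lie below it.

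Promoters are shown because 5 of the genes were lower together and several are known targets of interferon. In the RefSeq table (GRCm38.p6), 7 of the 8 genes matched, with 9 windows of 300 bases, each from 250 bases before to 50 bases after a transcript start. Dhx58 had no entry. Each window was searched on both strands for GAAANNGAA, the core of the interferon-stimulated response element, and for TTCNNNGAA, the gamma-activated site, which is its own reverse complement. The letters overlap in part, since both hold GAA, so 1 stretch can count for both. GAAANNGAA occurred in 8.56% and TTCNNNGAA in 8.30% of all 32851 windows of the table.

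GAAANNGAA was found in 4 of the 9 windows, those of Ddx58, Ifih1, Eif2ak2 and the third window of Adar. These are 4 of the 5 genes that were lower, and the windows of Mavs, Dhx9 and Rnf135 did not hold these letters. The matches are printed 5′ to 3′ on the strand of the gene with the motif in capitals, and a match on the opposite strand appears as the reverse complement.

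Ddx58, chr4:40239805-40239831, minus strand, motif on the opposite strand from base 4 after the start: tgaggcagtTTCGATTTCctatggcca
Ifih1, chr2:62646350-62646376, minus strand, motif on the opposite strand from base −112: gaattcgcgTTCCCTTTCctgtttctc
Ifih1, chr2:62646206-62646232, minus strand, from base 33: aagagaatcGAAACAGAAaccgatctg
Eif2ak2, chr17:78882533-78882561, minus strand, 2 overlapping matches from base 19: ccgccggGAAAACGAAACAGAAgagaacc
Adar, chr3:89730742-89730767, plus strand, from base 34: caaggaaacGAAAGTGAActctgggg
Adar, chr3:89730468-89730486, plus strand, from base −249: gGAAAAGGAActtcctcac

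TTCNNNGAA was found in 2 of the 9 windows, both in genes that were lower. In the third window of Adar it lies 11 bases ahead of the GAAANNGAA match, within the same stretch.

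Eif2ak2, chr17:78882733-78882759, minus strand, from base −178: tgcagagctTTCCCAGAAtggaagcca
Adar, chr3:89730731-89730757, plus strand, from base 23: ggaagccttTTCAAGGAAacgaaagtg

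The other 2 Adar windows, at the upstream starts of the gene (89714772 to 89715071 and 89714988 to 89715287), held neither motif. A match describes letters in a window. Binding of a factor was not measured in these tumors.

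Markers of cell types were read beside the sensors, as summed CPM in each tumor, and the gene adding most CPM to a sum is named, with no correction for length. Of 49 marker genes tested over 11 lists, 0 passed the threshold in edgeR. At an unadjusted p under 0.05, 2 were lower and 3 higher, where at least 3517 of all 19232 genes passed. DESeq2 called 3 higher, and limma-voom with quality weights called 1 lower (Csn3) and 4 higher (Mki67, Top2a, Ccnb1 and Cdk1). Over all genes those tools called 723 lower and 482 higher, and 1190 lower and 968 higher. Dividing-cell markers (6 of 6 in the table) summed to 391, 601, 627, 571, 575 and 551 CPM in knockout replicates 1 to 6 and to 295, 451, 374, 465 and 402 in wild-type replicates 1 to 5. The sum was higher in most knockout tumors (553 ± 83.7, SD, n = 6, against 398 ± 68.1, SD, n = 5; two-sided exact permutation p = 0.0173, 0.190 after adjustment over 11 lists), and Mki67 added most to it, at 449 and 320 CPM. Luminal markers summed to 1593 to 2264 CPM in the knockout tumors and to 3741, 1522, 2396, 3373 and 3048 in the wild-type tumors (exact permutation p = 0.0606, adjusted 0.333), with Csn3 adding most, at 609 and 1422 CPM. The groups overlapped on both sums.

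Immune and stromal lists had adjusted p-values of 0.861 in exact permutation tests. Macrophage markers (8 of 8, led by C1qb) summed to 246 ± 67.9 CPM (SD, n = 6) in knockout and 212 ± 63.5 (SD, n = 5) in wild-type tumors, with wild-type replicate 5 the lowest of all at 128. T and NK cell markers (8 of 8, of which 3 were tested, led by Cd8a) summed to 5.92 ± 1.64 and 6.26 ± 3.14 CPM, again with replicate 5 the lowest, at 2.68. Replicate 5, the wild-type tumor with the lowest level of 6 sensor genes, had the lowest sums on these 2 lists but not on every list.

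Among the other immune lists, plasmacytoid dendritic cell markers (2 of 4 in the table, mostly Ccr9) summed to 9.12 ± 3.07 CPM (SD, n = 6) and 8.75 ± 4.09 (SD, n = 5). Neutrophil markers (3 of 4, mostly Csf3r) summed to 2.42 ± 1.10 and 3.26 ± 2.19 CPM, and the B cell marker in the table, Cd79b, averaged 0.371 and 0.328 CPM, near the level that 3 counts give (0.213 to 0.285 CPM, counting error only). Fibroblast markers (6 of 6, led by Col1a1) summed to 505 ± 152 and 425 ± 125 CPM, endothelial markers (5 of 5, led by Cdh5) to 53.1 ± 15.4 and 62.2 ± 12.4, adipocyte markers (5 of 5, led by Fabp4) to 10.7 ± 11.3 and 17.2 ± 22.6, and basal epithelial markers (6 of 6, led by Oxtr) to 290 ± 90.7 and 336 ± 243. Replicate 5 also had the lowest sums of wild-type tumors for endothelial (44.7 CPM) and basal markers (83.1 CPM). It was not the lowest wild-type tumor for plasmacytoid dendritic cell (5.82 CPM), neutrophil (2.23), B cell (0.268), fibroblast (317), adipocyte (9.56), luminal (3048) or dividing-cell markers (402). The part of cell makeup in the lower sensor levels was not tested.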

How the data were processed

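Poly(A)-selected RNA of 11 mammary tumors was sequenced, per the labels, from stranded libraries. The authors extracted RNA with Trizol, sequenced paired ends and, per their processing notes, used FastQC, Bowtie2, Partek and GRCm38; how reads were counted is not given in the sources used here. The deposited tables hold estimated counts per gene (17.87% to 19.62% of the values in a library were not whole) and, separately, CPM, in which the authors scaled counts to the library total. Here the estimated counts were rounded to whole numbers, filtered with filterByExpr, scaled by TMM and tested with edgeR 4.0.16 (quasi-likelihood, R 4.3.3), with Benjamini-Hochberg adjustment over 19232 genes; a gene was called at an adjusted p under 0.05. Printed CPM are the deposited values. Permutation tests of the difference in means were exact and two-sided, doubling the smaller tail (scipy 1.17.1). The code was tested on simulated data, in which genes varied independently and no tumor deviated as wild-type replicate 5 did. Of the genes given a change there, 185 were tested, and edgeR made 158 calls. There, false calls made up 8.23% of the calls of edgeR and 20.0% of those of DESeq2. For limma-voom with quality weights the share was 9.03%, and for limma with a pseudocount of 1 it was 10.0%. These shares describe the simulated data, and the share of false calls in the tumors was not measured.

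Alternatives were DESeq2 1.42.0, upper-quartile factors, library size alone, no filter, a minimum of 1 CPM in 5 or more tumors, limma 3.58.1 on log2 CPM with a pseudocount of 1 or of 0.1, limma-voom with sample quality weights, the replicate number as a block, and leaving out each tumor. Named were the 8 members and Pcbp1, each listed pathway gene past the threshold, the listed genes of highest mean CPM where fewer than 3 passed, and the 3 genes most like each member; a few items that this rule names are not reported here. Members and lists were chosen with earlier results of these data known. Levels per kilobase used exon lengths of GENCODE vM39, and promoter windows came from RefSeq (GRCm38.p6). Gene positions are those of the deposited tables, with the end taken 1 base earlier.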

Additional observations from a re-analysis of the deposited data

Results flagged for a closer look

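The 60 groups of values searched covered each member, Pcbp1, each listed pathway gene called and each marker sum, in each genotype. Of these groups, 6 held a tumor whose gap to the nearest other tumor was a large share of the group's range (Dixon's 95% criterion). Other genes named above were not searched. Chance flags about 1 in 20 groups, here 3. Adar measured 72.4 CPM in wild-type replicate 5, where the nearest wild-type tumor had 108, and Irf9 measured 39.5 CPM in the same tumor, with 73.6 the nearest. Mavs reached 36.0 CPM in knockout replicate 2, against 27.9 in the next knockout tumor. The summed basal epithelial markers were 116 CPM in knockout replicate 2, against 280 in the next. Summed adipocyte markers were 57.3 CPM in wild-type replicate 3, against 10.5 in the next, and summed dividing-cell markers were 391 CPM in knockout replicate 1, against 551 in the next. Without wild-type replicate 5 the log2 fold change of Adar was −0.96 and that of Irf9 −0.98, against −0.86 and −0.85 with it.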

How the results depend on the processing

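Dhx58, Eif2ak2 and Adar passed the threshold in the same direction in all 20 alternatives (log2 fold changes −2.46 to −1.89, −0.85 to −0.75 and −0.96 to −0.77, highest adjusted p 0.0332, 0.0261 and 0.0405), and Ddx58 in 19 (−1.11 to −0.85). Mavs and Rnf135 kept their sign and did not pass in any. Ifih1 kept its sign but lost the threshold in 10: limma with a pseudocount of 1 (−0.74) or 0.1 (−0.75), the replicate block (−0.82, adjusted p = 0.0575) and 7 of the 11 fits that leave out 1 tumor, which ranged from −0.90 to −0.69. Dhx9 ranged from −0.061 to 0.0098 with 1 tumor left out. The cause of these changes was not tested.

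The fit with the replicate block used the 10 tumors numbered 1 to 5 in both groups. Deviations of equally numbered tumors correlated at 0.127, 0.0922, −0.0692, −0.137 and 0.283. For 2 of 5 knockout tumors the wild-type tumor most like it bore the same number, so the numbers were not taken as pairs. With the block 118 genes were lower and 42 higher, 3 of the members were lower, and Ddx58 was at −0.97 (adjusted p = 0.0551). Of the 10 listed pathway genes called, 6 also lost the threshold with the block: Ikbkb (−0.35, adjusted p = 0.108), Tkfc (−1.23, 0.0908), Tbkbp1 (0.57, 0.0745), Stat2 (−1.37, 0.0564), Zcchc3 (−1.17, 0.054) and Zbp1 (−1.50, 0.0532). That fit uses fewer tumors and more terms.

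Counts of calls moved more than the members did. DESeq2 gave 723 lower and 482 higher genes (40.0% higher, against 26.8% in edgeR) and limma-voom with quality weights 1190 and 968 (44.9% higher), sharing 436 and 430 of the 436 edgeR calls. Leaving out 1 tumor gave 144 to 389 lower genes and 41 to 187 higher genes. Lower counts were under 319 by more than 1.5 times without knockout replicate 3 (144), 4 (148), 5 (163) or 6 (212) and wild-type replicate 1 (171), 3 (184) or 4 (148), and higher counts were so without the same tumors (42, 46, 48, 69, 54, 41 and 42). Without wild-type replicate 2, 187 genes were higher, against 117. The median log2 fold change of all genes, −0.0001 in edgeR with TMM, was −0.006 with upper-quartile factors, −0.0018 with library size alone and 0.0054 with DESeq2. At these depths 3 counts correspond to 0.213 to 0.285 CPM.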
